A study of Homo sapiens with 48 samples.

Results

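The comparison described here is the effect of depleting Hic-5 in U2OS cells before any glucocorticoid was added. Its members are the 4 arrays labelled siHic5_2_0h and the 4 arrays labelled siNS_0h, chosen by their titles, 8 of the 48 arrays of the series. U2OS is a human osteosarcoma line, and the cells were a clone with a stable transgene for wild-type rat glucocorticoid receptor alpha, which all groups carried. All cells grew in serum-containing medium and their RNA was measured on bead arrays (Illumina HT-12 v4). The siHic5_2 group was transfected with 1 siRNA against Hic-5 and the siNS group with a nonspecific siRNA, at 60 pmol per well each, and neither received dexamethasone, a synthetic glucocorticoid (0 h). A further 4 arrays of cells with no siRNA at 0 h (NI) served as a check of the control. The series title and design concern the part of Hic-5 in the response to glucocorticoid, and the 0 h arrays give the state of the cells from which that response started. Only 1 Hic-5 siRNA was used, so loss of Hic-5 and effects of the siRNA sequence on other transcripts cannot be told apart. The clone is a single source. Nothing in the labels says that replicates 1 to 4 came from separate cultures. The limma p-values here reflect the variation among arrays of a group, pooled over all 48 arrays with the hormone groups included, and possibly technical.

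Hic-5, encoded by TGFB1I1, is a LIM-domain protein related to paxillin and leupaxin. It sits at focal adhesions, where integrins join the matrix to the actin cytoskeleton, and it also enters the nucleus and acts there as a coregulator of steroid receptors. In fibroblasts and muscle-like cells it is known as a gene induced by TGF-beta, a growth factor that drives matrix production and contractile gene expression.

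All levels below are the authors' processed log2 values, and differences are siHic5_2 minus siNS on the log2 scale. A gene was called at a limma adjusted p under 0.05 over 11886 genes. The 8 arrays had median bead intensities of 134.8 to 173.9, with 33.2 to 37.3% of probes above background. The first principal component of the 12 arrays at 0 h (43.7% of the variance) placed the siHic5_2 arrays at -48.9 to -23.4 and the siNS and NI arrays at 12.9 to 24.6. On the second (20.02%), siNS replicate 1 (30.7) and NI replicate 1 (39.8) stood apart from the others (-21.7 to 13.8). On the first, siHic5_2 replicate 2 lay nearest to the controls. Counts without these arrays are given beside the gene groups that they touch.

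TGFB1I1 was depleted on all siHic5_2 arrays. Its log2 level was 5.97, 5.89, 6.56 and 6.33 on siHic5_2 replicates 1 to 4 and 9.71, 9.53, 9.27 and 9.41 on siNS replicates 1 to 4. The groups did not overlap, and siHic5_2 replicate 2 was as low as the others. The difference was -3.29 (SE 0.24, limma adjusted p = 2.08e-13), which left 10.2% of the control signal. The TGFB1I1 probe was above background on 2 of the 4 siHic5_2 arrays, and without background correction the difference was -2.30, or 20.3% of the control signal. A two-sided exact permutation test over the 8 arrays gave p = 0.0286, the smallest value that 70 splits can give. The mean in NI cells was 9.51, close to 9.48 in siNS cells.

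The knockdown changed a large share of the measured transcriptome. Of 11886 genes, 3088 (26.0%) were called, 1642 higher (13.8%) and 1446 lower (12.2%), and 687 of the called genes differed at least 2-fold (342 higher, 345 lower). The siNS and NI arrays at 0 h gave 0 limma calls (0.00%), also with the replicate number as a block. For them 110 genes had an unadjusted limma p below 0.05, fewer than chance gives over 11886 genes. The main model paired no replicates, although replicate 1 of siNS and of NI stood apart together. The reason for the low count was not tested. The median difference over all genes was 0.01. Each of 4 slides held 1 array of each group, and 2852 of the called genes (92.4%) had the same sign on all 4 slides. The slide pairs were made of the same arrays that gave the calls, so this share is not an independent check. It was not set beside the share among genes not called. The groups' arrays did not overlap for 2845 genes (23.9% of those tested). The count of called genes was 2385 to 3160 when 1 array was left out. Without background correction, 41 of the 160 named and called genes differed by a smaller amount, by over 1.5 times, and all 41 kept their direction and call. The share of called genes in each list below is to be read against 26.0% of all genes, or 13.8% higher and 12.2% lower. Small counts in a list often moved by 1 or 2 genes when 1 array was left out, and the counts that moved by over 1.5 times are given beside it.

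**Figure D1:**
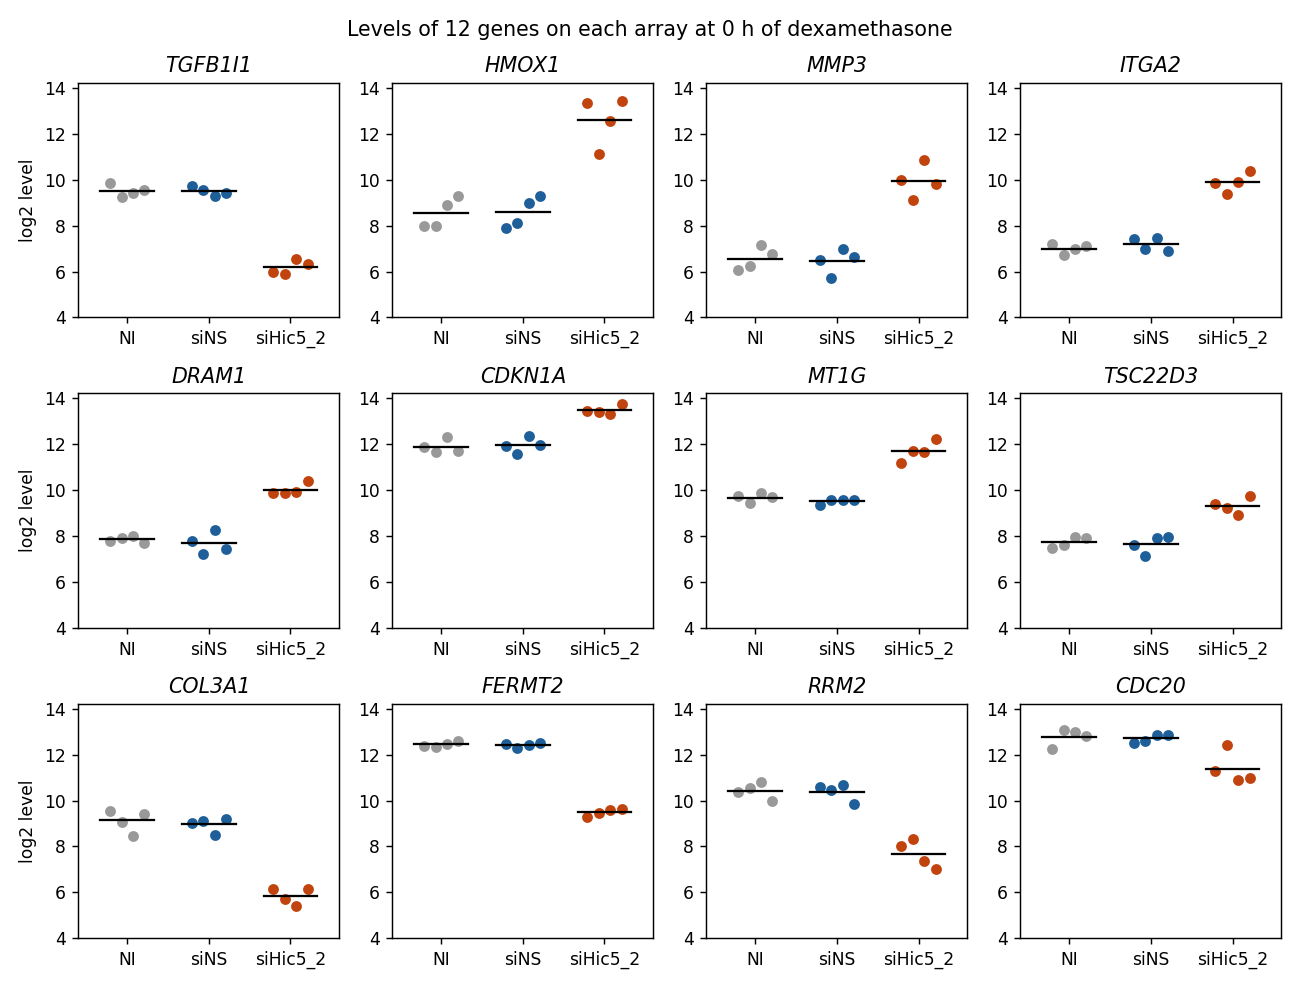
Each panel plots the log2 level (y axis) of 1 gene on each array at 0 h for NI, siNS and siHic5_2 cells. Points are arrays in replicate order and bars are means. TGFB1I1, COL3A1, FERMT2, RRM2 and CDC20 lie lower and the other 7 genes higher with siHic5_2, and NI arrays lie with siNS arrays.

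The genes with the largest rises encoded a stress enzyme, matrix proteases, a collagen receptor and regulators of immunity and autophagy. HMOX1, heme oxygenase, which degrades heme under oxidative stress, read 13.33, 11.10, 12.54 and 13.42 with siHic5_2 against 7.91, 8.12, 8.97 and 9.27 with siNS. All siHic5_2 arrays were above all controls, with replicate 2 the lowest of them. The rise was 4.03 (SE 0.52, limma adjusted p = 2.04e-07), or 16.3-fold. MMP3, stromelysin, a protease of matrix proteins, read 9.97, 9.10, 10.86 and 9.79 against 5.72 to 6.99 and rose by 3.48 (SE 0.36, limma adjusted p = 2.21e-09). MMP9, a gelatinase, read 10.31 to 10.92 against 7.92 to 8.07 and rose by 2.72 (SE 0.54, limma adjusted p = 0.000204). ITGA2, the collagen-binding integrin alpha-2 subunit, read 9.85, 9.39, 9.90 and 10.35 against 7.40, 6.99, 7.45 and 6.89. Those ITGA2 groups were 6.47-fold apart without overlap (2.69, SE 0.26, limma adjusted p = 3.55e-10).

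SUGCT, a mitochondrial enzyme of glutarate metabolism, rose by 3.35 and FAM210B, a mitochondrial membrane protein, by 2.44. LY96, the MD-2 co-receptor that lets TLR4 sense endotoxin, rose by 2.71, with siNS replicate 3 at 8.67 and the other controls at 6.52 to 6.65. CST7, the protease inhibitor cystatin F, rose by 2.18, and the protease scavenger A2M by 2.08. CTHRC1, a secreted matrix protein, rose by 2.16, and its probes ranged from 1.64 to 2.16. APOD, a lipid-binding lipocalin, rose by 2.09. Limma gave each of these 7 genes an adjusted p of 0.00134 or less.

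Some genes crossed the background threshold. RENBP, a renin-binding protein that is an enzyme of amino sugar metabolism, was above background on all siHic5_2 arrays (9.14, 7.93, 9.08 and 9.26) and on 0 siNS arrays, a rise of at least 7.19-fold. By the same bound TCIM rose at least 5.69-fold, HTN1, a histatin known from saliva, at least 4.79-fold, SIGLEC14, a sialic acid receptor, at least 3.94-fold, and EBI3, a cytokine subunit, at least 3.46-fold. In the other direction MOB3B fell at least 2.7-fold, TRIL at least 2.18-fold, the clock repressor BHLHE41 at least 2.13-fold, the ciliary protein LZTFL1 at least 2.12-fold and ABHD3, a phospholipase, at least 2.08-fold. In each of these genes every array of the group named as low was below background, and BHLHE41 was above it on 3 of 4 siNS arrays.

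The largest falls beside TGFB1I1 were in a fibrillar collagen, an integrin activator and a nucleotide synthesis enzyme. COL3A1, type III collagen, read 6.16, 5.71, 5.40 and 6.14 with siHic5_2 against 9.04, 9.12, 8.48 and 9.21 with siNS, and its probe was above background on 1 siHic5_2 array. The COL3A1 difference was -3.11 (SE 0.26, limma adjusted p = 7.81e-12) and -2.02 without background correction. FERMT2, kindlin-2, which binds integrin tails and switches integrins on, read 9.30, 9.45, 9.59 and 9.63 against 12.46, 12.28, 12.41 and 12.50. This tight pair of groups was 7.58-fold apart (-2.92, SE 0.22, limma adjusted p = 3.31e-13). RRM2, a subunit of ribonucleotide reductase, which makes DNA precursors, read 8.0, 8.34, 7.36 and 7.01 against 10.59, 10.44, 10.67 and 9.84 (-2.71, SE 0.36, limma adjusted p = 4.5e-07). None of these groups overlapped.

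Among the other large falls, SLN, a regulator of the calcium pump of the sarcoplasmic reticulum, differed by -2.80 and FKBP3, a nuclear prolyl isomerase, by -2.50. HAPLN1, which links hyaluronan to proteoglycans, differed by -2.44. TGFB2, a TGF-beta ligand, read 7.40, 7.67, 7.44 and 5.72 against 9.95, 8.74, 9.81 and 9.32 and differed by -2.40. COL8A1, a short-chain collagen, differed by -2.34 (its 2 probes by -2.34 and -1.27) and BAIAP2L1, an adaptor between membrane and actin, by -2.24. SHOC1, a meiotic protein, differed by -2.54, with a second probe at -1.41. The protease genes CTSV and ADAMTS6 both differed by -2.15, and LSM14A, a protein of RNA processing bodies, by -2.19. CCDC62 differed by -2.21. Limma gave each of these 11 genes an adjusted p of 3.72e-06 or less, and the groups did not overlap in any of them.

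Most measured targets of p53, the transcription factor that halts the cell cycle or starts cell death after damage, rose. Of 28 listed, 24 were measured, and 16 of these were called higher and 0 lower, 66.7% against 13.8% of all genes. The median difference of the list was 0.81 (all genes 0.01), and all 24 differences were above 0. CDKN1A, the p21 inhibitor of cyclin-dependent kinases, read 13.43, 13.39, 13.31 and 13.74 against 11.93, 11.57, 12.36 and 11.97. Its groups were 2.85-fold apart without overlap (1.51, SE 0.19, limma adjusted p = 9.75e-08), and its probes agreed in sign (1.37 and 1.51). DRAM1, a lysosomal membrane protein through which p53 induces autophagy, read 9.85, 9.87, 9.91 and 10.40 against 7.23 to 8.27 (2.32, SE 0.23, limma adjusted p = 5.49e-10). SESN1, a sestrin that restrains the mTORC1 growth kinase, rose by 2.01 (SE 0.22), from 6.58 to 7.12 in controls to 8.62 to 9.14.

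Further p53 targets covered cell death, growth arrest and secreted signals. PHLDA3, which blocks the survival kinase AKT at the membrane, rose by 1.61 (SE 0.27), and CCNG1, cyclin G1, by 0.74 (probes 0.34 and 0.74). FAS, the death receptor, and GDF15, a secreted stress cytokine, were above background on all siHic5_2 arrays and on 0 siNS arrays, at least 1.99-fold and 1.55-fold higher. SESN2, another sestrin, rose by 1.12, a call that ended without siHic5_2 replicate 4 (0.94). The mean log2 level of the list was 9.59, 9.43, 9.42 and 9.83 on the siHic5_2 arrays and 8.58, 8.45, 8.84 and 8.58 on the siNS arrays. The count of called members was 14 to 17 without any 1 of the 8 arrays.

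Many genes of the cell division cycle fell, in the opposite direction to the p53 targets. Of 42 measured genes of DNA replication, 0 were called higher and 26 lower (61.9%, against 12.2% of all genes), with a median of -0.67. Of 46 genes of mitosis and the spindle, 0 were called higher and 27 lower (58.7%), with a median of -0.76 and all 46 differences below 0. Of 34 DNA repair genes, 0 were called higher and 13 lower (38.2%), with a median of -0.43. In these bulk samples fewer cells in a phase of the cycle and less RNA per cell cannot be told apart.

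The replication genes supply and copy DNA. RRM2, described above, was the lowest of them, and RRM1, the other subunit of the same reductase, read 11.18, 11.60, 11.15 and 10.46 against 12.11 to 12.53 (-1.26, SE 0.24, limma adjusted p = 9.99e-05). DUT, which removes dUTP so that uracil stays out of DNA, differed by -1.72 (SE 0.21), and its 3 probes ranged from -1.72 to -0.41. RFC5, a subunit of the clamp loader of replication, differed by -1.18 (SE 0.22). These groups did not overlap.

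The mitotic genes differed least on siHic5_2 replicate 2. KIF20A, a kinesin of cytokinesis, read 8.91, 10.07, 8.48 and 8.61 with siHic5_2 against 10.39, 10.26, 10.34 and 10.78 with siNS (-1.43, SE 0.35, limma adjusted p = 0.00186). CDC20, the activator of the anaphase-promoting complex, read 11.28, 12.42, 10.88 and 10.97 against 12.49, 12.60, 12.85 and 12.86 (-1.31, SE 0.30, limma adjusted p = 0.00102). In both genes siHic5_2 replicate 2 lay just under the lowest control and the other 3 replicates far below it. ASPM, a spindle pole protein, read 8.82, 9.74, 8.19 and 8.40 against 10.01 to 10.16 (-1.30, SE 0.31, limma adjusted p = 0.0018), and SMC2, a condensin subunit, differed by -1.21 (probes -1.21 to -0.83). The mean log2 level of the 46 mitotic genes was 9.37, 10.20, 9.20 and 9.38 on the siHic5_2 arrays and 10.17, 10.37, 10.49 and 10.31 on the siNS arrays. On the NI arrays it was 9.85, 10.64, 10.45 and 10.21, a wider range, with NI replicate 1 below siHic5_2 replicate 2. On the slide that held siHic5_2 replicate 2 the median difference of the list was 0.06, and on the other 3 slides it was -1.17 to -1.0. The replication median was -0.14 on the slide of siHic5_2 replicate 2 and -1.14 to -0.73 on the others. For the repair genes these values were -0.08 and -0.67 to -0.40.

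Without siHic5_2 replicate 2, 34 mitotic, 30 replication and 17 repair genes were called lower. Without siHic5_2 replicate 1, 3 or 4 the mitotic count was 14, 9 and 14, and without siNS replicate 3 it was 14. The replication count was 16 and the repair count 7 without siHic5_2 replicate 4. Leaving out siNS replicate 1 gave 25 mitotic, 26 replication and 12 repair genes. With NI as control, 22 mitotic, 29 replication and 12 repair genes were called lower. Among the repair genes, BRCA1, needed for repair by homologous recombination, differed by -1.29 (probes -1.29 and -1.22), FANCG and FANCI of the Fanconi anemia pathway by -1.03 and -0.89, and MDC1, a scaffold at DNA breaks, by -0.97. MYBL2, a transcription factor of cycling cells, differed by -0.79, and its call ended without siHic5_2 replicate 1 or 4 or siNS replicate 2 or 3 (range -0.90 to -0.70).

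**Figure D2:**
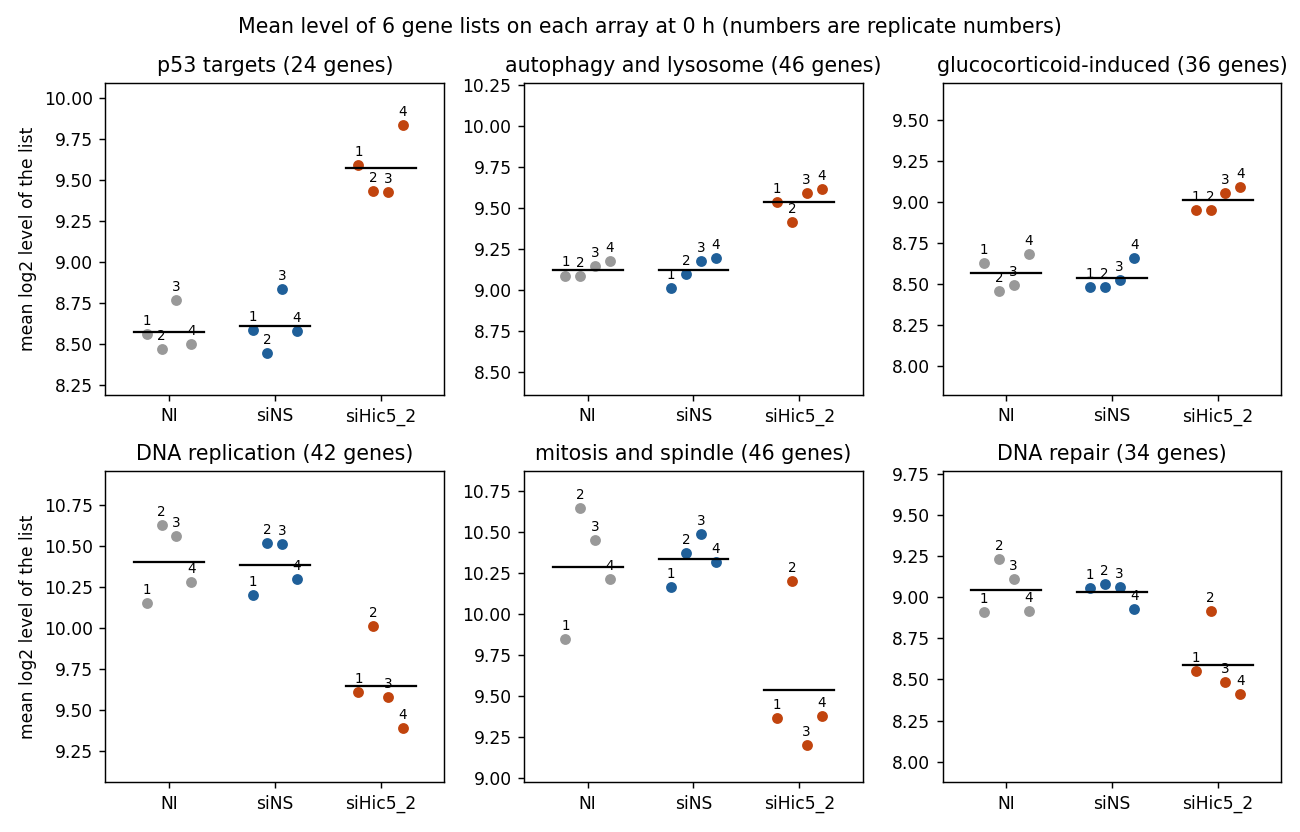
Each panel plots the mean log2 level of the measured genes of 1 list (y axis) on each array at 0 h, with the replicate number beside each point and the group mean as a bar. The mitotic list of siHic5_2 replicate 2 (10.20) lies within the siNS range of 10.17 to 10.49, while its p53 list (9.43) lies with the other siHic5_2 arrays.

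Promoters of the genes that fell together are shown because cell cycle genes share known sequence elements. The windows run from 250 bases before to 50 bases after each start in RefSeq (GRCh38.p14) and were found for 9548 of the 11886 genes, and both strands were searched. E2F factors drive replication genes through sites here spelled TTTGGCG or TTTCGCG or TTTCCCG, held by 15 of 23 windows of called replication genes (65.2%). They were held by 7 of 14 windows of replication genes that were not called (50%), 11.5% of windows of all genes tested and 7.28% of all 27305 windows. The windows of RRM2, DUT, RRM1 and RFC5, the replication genes that fell most, held none of these sites. The cell cycle homology region TTTGAA, through which mitotic genes are repressed outside division, was held by 18 of 23 windows of called mitotic genes (78.3%). It was held by 9 of 15 windows of mitotic genes that were not called (60%), 9.97% of genes tested and 15.4% of all windows. The window of KIF20A, the mitotic gene that fell most, did not hold it. CCAAT, bound by NF-Y, was held by 78.3% of windows of called mitotic genes and by 36.7% of genes tested.

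The examples below are called genes of large difference whose window holds the element, chosen after their values were seen. They are read 5′ to 3′ on the strand of the gene, and capitals mark the element on either strand. The first, CDT1, licenses replication origins (chr16:88803539-88803838, plus strand; difference -1.0) and holds a pair of E2F sites that lie end to end. CDC20 (chr1:43358731-43359030, plus strand) and ASPM (chr1:197146620-197146919, minus strand) hold the element TTTGAA. A match is a run of letters and not a measured binding site.
CDT1: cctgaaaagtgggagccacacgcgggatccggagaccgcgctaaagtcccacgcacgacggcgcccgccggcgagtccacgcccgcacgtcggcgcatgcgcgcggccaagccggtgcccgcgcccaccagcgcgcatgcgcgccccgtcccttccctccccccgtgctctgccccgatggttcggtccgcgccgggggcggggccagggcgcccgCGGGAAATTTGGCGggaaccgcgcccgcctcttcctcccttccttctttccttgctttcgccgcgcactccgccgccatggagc
CDC20: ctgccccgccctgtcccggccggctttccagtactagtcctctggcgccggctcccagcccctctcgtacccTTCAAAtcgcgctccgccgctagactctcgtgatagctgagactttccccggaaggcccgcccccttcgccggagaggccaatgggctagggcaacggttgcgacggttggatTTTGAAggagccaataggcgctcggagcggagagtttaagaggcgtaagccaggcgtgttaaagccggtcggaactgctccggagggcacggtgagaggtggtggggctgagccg
ASPM: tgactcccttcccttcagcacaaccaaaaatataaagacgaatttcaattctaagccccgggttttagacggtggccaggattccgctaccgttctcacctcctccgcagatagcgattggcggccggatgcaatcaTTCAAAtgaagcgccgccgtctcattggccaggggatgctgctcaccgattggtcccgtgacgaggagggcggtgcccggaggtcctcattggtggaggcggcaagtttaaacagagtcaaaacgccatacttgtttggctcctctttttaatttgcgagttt

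Among genes of autophagy and the lysosome, the routes by which cells digest their own content, more rose than fell. Of 46 measured, 20 were called higher and 2 lower (47.8% called, against 26.0% of all genes), 24 were not called, and the median was 0.43. The lower count was 1 without siHic5_2 replicate 3 or 4 or siNS replicate 3 or 4. DRAM1 led, and it is also a p53 target. Its relative DRAM2 read 8.46, 8.31, 7.84 and 8.19 against 6.87, 6.47, 7.06 and 7.08 (1.33, SE 0.18, limma adjusted p = 5.56e-07). TPP1, a lysosomal peptidase, read 10.22, 9.67, 10.07 and 10.23 against 8.74 to 9.04 (1.14, SE 0.19, limma adjusted p = 2.11e-05). Both rises were larger than the spread of either group. CTSB, the lysosomal protease cathepsin B, rose by 0.82 (probes 0.82 and 0.86). UVRAG, a subunit of an autophagy kinase complex, rose by 1.07, but its second probe differed by -0.11. GUSB, lysosomal beta-glucuronidase, went the other way (-0.67, SE 0.13). The count of members called higher was 16 to 22 without any 1 of the 8 arrays and 19 without siNS replicate 1.

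The element TCACGTGA, through which TFEB and related factors drive lysosomal genes, was held by 5 of 18 windows of called autophagy and lysosome genes (27.8%). It was held by 1 of 20 windows of those not called (5%), 2.01% of genes tested and 1.04% of all windows. The windows of DRAM1, DRAM2 and TPP1, the members that rose most, did not hold it. The genes below were chosen as the called members of largest difference that hold it. GAA, acid alpha-glucosidase (chr17:80101331-80101630, plus strand), rose by 0.83. ATP6V0D1, a subunit of the proton pump that acidifies lysosomes (chr16:67481108-67481407, minus strand), rose by 0.67. CTSA, cathepsin A (chr20:45891085-45891384, plus strand), rose by 0.54.
GAA: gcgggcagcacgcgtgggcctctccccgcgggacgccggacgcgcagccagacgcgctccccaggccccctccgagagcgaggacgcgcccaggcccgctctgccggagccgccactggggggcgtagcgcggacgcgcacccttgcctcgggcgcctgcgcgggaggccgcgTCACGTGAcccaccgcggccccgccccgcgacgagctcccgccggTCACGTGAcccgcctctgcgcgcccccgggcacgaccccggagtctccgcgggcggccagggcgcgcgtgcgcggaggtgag
ATP6V0D1: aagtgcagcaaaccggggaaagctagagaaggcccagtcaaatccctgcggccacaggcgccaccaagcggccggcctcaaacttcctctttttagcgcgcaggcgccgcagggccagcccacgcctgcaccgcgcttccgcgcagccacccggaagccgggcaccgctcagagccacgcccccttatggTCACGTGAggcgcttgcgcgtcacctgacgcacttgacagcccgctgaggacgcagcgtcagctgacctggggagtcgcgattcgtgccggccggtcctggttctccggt
CTSA: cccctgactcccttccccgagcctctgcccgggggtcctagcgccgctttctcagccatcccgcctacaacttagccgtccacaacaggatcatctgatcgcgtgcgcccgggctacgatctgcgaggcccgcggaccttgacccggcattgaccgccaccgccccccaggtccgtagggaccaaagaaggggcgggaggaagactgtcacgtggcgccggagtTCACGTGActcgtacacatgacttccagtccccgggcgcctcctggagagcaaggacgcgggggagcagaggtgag

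Regulators of apoptosis for both survival and death were called. Of 29 measured, 10 were higher and 3 lower (44.8% called, against 26.0% of all genes), with a median of 0.21. Without siHic5_2 replicate 4, 0 were lower, and 1 was without siHic5_2 replicate 3 or siNS replicate 2, 3 or 4. Beside FAS, the survival genes BCL2L1 (Bcl-xL) and BCL2L2 (Bcl-w) and the ubiquitin ligase BIRC2 rose. The other members called higher were the survival gene BCL2 (1.07) and the death genes PMAIP1, BAX, TNFRSF10B, BID and BBC3 (0.56 to 1.00). BCL2L1 read 12.91, 12.67, 12.53 and 12.63 against 11.53, 11.21, 11.61 and 11.55, a rise of 1.21 (SE 0.14, limma adjusted p = 9.72e-09). BCL2L2 rose by 1.20 (SE 0.15) and BIRC2 by 1.08 (SE 0.14, probes 0.60 and 1.08).

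Some genes known to be induced by glucocorticoid rose although no hormone had been added. Of 36 measured, 14 were called higher and 1 lower (41.7% called, against 26.0% of all genes), 21 were not called, and the median was 0.40. Without siNS replicate 2, 3 were lower. Among the classical targets not called, named after their values were seen, FKBP5 differed by 0.39 and KLF9 by 0.62 (limma adjusted p = 0.0774 and 0.0662). PER1, another of them (limma adjusted p = 0.160), was not above background on any siNS array and was at least 1.05-fold higher. The mean log2 level of all 36 genes of the list was 8.95 to 9.10 on the siHic5_2 arrays and 8.48 to 8.66 on the siNS arrays. TSC22D3 (GILZ), a classical direct target of the receptor, read 9.40, 9.22, 8.93 and 9.73 against 7.62, 7.15, 7.90 and 7.96. The groups did not overlap (1.66, SE 0.15, limma adjusted p = 6.56e-11), but its 3 probes ranged from 0.15 to 1.73. RGS2, which shortens G protein signals, rose by 1.38 (SE 0.25), from 7.64 to 8.17 in controls to 9.08 to 9.60. DUSP1, a MAP kinase phosphatase, read 11.98, 11.80, 12.51 and 12.31 against 10.91 to 11.52 (0.97, SE 0.20, limma adjusted p = 0.000393). DDIT4, an inhibitor of mTORC1, rose by 1.46 (SE 0.34), and TNFAIP3 (A20), a brake on NF-kB, by 1.65 (SE 0.39). The count of members called higher was 11 to 15 without any 1 of the 8 arrays and 14 without siNS replicate 1.

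These rises were set beside the hormone itself, measured in NI cells, which enter neither side of the knockdown comparison. In NI cells 2 h of dexamethasone raised TSC22D3 by 2.96 and RGS2 by 2.85, against 1.66 and 1.38 for the knockdown. TNFAIP3 differed by 1.58 and DUSP1 by only 0.27 in NI cells at 2 h, against 1.65 and 0.97 for the knockdown. DDIT4 differed by 0.03 in NI cells at 2 h and rose with the knockdown. Of 102 genes that 2 h of hormone raised at least 2-fold in NI cells, 28 (27.5%) were called higher and 5 (4.90%) lower with siHic5_2 at 0 h. Of 78 that it lowered, 7 (8.97%) were called higher and 15 (19.2%) lower. For 24 h of hormone the shares were 22.5% higher and 7.81% lower of 768 raised genes, and 11.9% and 22.3% of 825 lowered genes. Over all 11886 genes the shares were 13.8% higher and 12.2% lower. These gene sets were chosen after the data were seen. NR3C1, the human receptor gene (the transgene is of rat), read 6.47 to 6.82 against 6.60 to 7.08 and was not called (-0.24, SE 0.21, limma adjusted p = 0.442).

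Metallothioneins, small proteins that bind zinc and copper and that metals, oxidants and glucocorticoids induce, were higher in 3 of 5 measured genes (60%, against 13.8% of all genes) and lower in 0, or in 1 without siNS replicate 2. MT1G read 11.18, 11.69, 11.64 and 12.22 against 9.35, 9.57, 9.56 and 9.58 (2.17, SE 0.23, limma adjusted p = 1.72e-09). MT1X read 13.08, 13.24, 13.28 and 13.04 against 11.90 to 12.51 (0.98, SE 0.17, limma adjusted p = 2.12e-05). Both genes separated the groups fully. MT1H was called too (0.92) but was above background on 2 siHic5_2 and 0 siNS arrays. MT1E (0.06, with another probe at 1.17) and MT2A (-0.18) were bright in both groups and not called. Metallothionein genes are near-identical, so probes may share signal. The window of MT1X (chr16:56682220-56682519, plus strand) holds 4 metal response elements, spelled TGCGCNC or TGCACNC. Such elements were held by 2 of 2 windows of called metallothioneins and by 1 of 1 of those not called (MT2A). They are held by 39% of windows of genes tested and 29.3% of all windows.
MT1X: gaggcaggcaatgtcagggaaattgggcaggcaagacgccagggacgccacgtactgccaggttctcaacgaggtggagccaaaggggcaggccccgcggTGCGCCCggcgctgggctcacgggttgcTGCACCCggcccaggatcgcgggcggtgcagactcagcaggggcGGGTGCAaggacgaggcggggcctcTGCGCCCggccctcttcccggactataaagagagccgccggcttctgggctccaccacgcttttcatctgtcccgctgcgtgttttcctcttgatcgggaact

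At the adhesions where Hic-5 works, a few genes moved far. Of 45 measured adaptors of focal adhesions, 7 were called higher and 4 lower, 24.4% against 26.0% of all genes. The higher count was 4 without siHic5_2 replicate 1 or 3. Beside FERMT2, PARVG, a parvin that links integrin-linked kinase to actin, read 7.46, 7.47, 7.53 and 7.49 against 8.85, 8.65, 8.09 and 9.0 (-1.16, SE 0.27, limma adjusted p = 0.00101). Of the nearest relatives of Hic-5, LPXN (leupaxin) read 11.06, 9.30, 10.06 and 10.29 against 8.17, 7.53, 9.89 and 7.61, so that siNS replicate 3 overlapped the siHic5_2 range. LPXN rose by 1.87 (SE 0.56, limma adjusted p = 0.0103), and the call ended without siHic5_2 replicate 1 (1.58). PXN (paxillin) differed by 0.55 with overlapping groups (limma adjusted p = 0.0431), and this call ended without siHic5_2 replicate 1, 3 or 4 or siNS replicate 1, 3 or 4 (range 0.37 to 0.77).

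Of 18 integrin subunits measured, 4 were called higher and 0 lower (22.2%), or 1 lower without siNS replicate 3. ITGA5, the fibronectin receptor subunit, read 10.11, 10.11, 10.57 and 10.37 against 9.10 to 9.43 (1.02, SE 0.20, limma adjusted p = 0.000159). ITGB2, a leukocyte subunit, rose by 0.60 (probes 0.60 and 0.86), and its call ended without siHic5_2 replicate 2 or 3 or siNS replicate 4 (range 0.49 to 0.72).

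Collagens split. Of 21 measured, 5 were higher and 2 lower (33.3% called). Against the large falls of COL3A1 and COL8A1 stood rises of COL13A1, a transmembrane collagen (1.62, SE 0.36), COL4A1 of basement membranes (0.71, SE 0.21) and COL1A1, the main collagen of bone (0.54, SE 0.15). COL4A1 read 12.76, 12.63, 13.13 and 12.96 against 12.06 to 12.26, and COL1A1 read 13.02 to 13.68 against 12.53 to 12.90. The call of COL1A1 ended without siHic5_2 replicate 3 (0.40). Among 39 matrix glycoproteins and crosslinkers, 7 were higher and 7 lower (35.9% called), with 4 lower without siHic5_2 replicate 4. MGP, an inhibitor of calcification, rose by 1.96, but siHic5_2 replicate 2 (6.66) lay among the controls (6.33 to 7.73), and the call ended without any 1 of 5 arrays (siHic5_2 replicates 1, 3 and 4, siNS replicates 1 and 3; range 1.51 to 2.68). MATN3, a cartilage matrilin, differed by -1.5. Of 24 proteases and inhibitors 5 were higher and 3 lower (33.3% called, against 26.0% of all genes). Only 1 was lower without siHic5_2 replicate 1 or 2 or siNS replicate 1, 2 or 4, and 0 without siHic5_2 replicate 4. MMP10, stromelysin-2, which stood beside MMP3 and MMP9, rose by 1.26 (SE 0.27).

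In the TGF-beta pathway, a ligand and SMAD5 fell while a co-receptor rose. Of 28 ligands, receptors and SMADs measured, 4 were higher and 5 lower (32.1% called), with 2 higher without siNS replicate 1. TGFB2 is given above, SMAD5, a transducer of BMP signals, read 7.55 to 8.04 against 8.38 to 9.33 (-1.12, SE 0.24), and FSTL1, a secreted glycoprotein that binds BMPs, differed by -0.94 (SE 0.18). ENG, endoglin, a co-receptor for TGF-beta and BMPs, read 8.35, 8.20, 8.69 and 8.76 against 7.05, 6.28, 7.01 and 6.95 (1.68, SE 0.28, limma adjusted p = 1.75e-05). Of 21 TGF-beta target genes, 3 were higher and 1 lower (19.0% called). ACTA2, smooth muscle actin, read 9.49, 9.06, 9.31 and 9.05 against 7.14, 7.32, 7.80 and 6.86 and rose 3.86-fold (1.95, SE 0.35, limma adjusted p = 5.55e-05), whereas COL3A1 was the lowest of the list. The contractile genes ACTG2, an enteric actin (1.72, SE 0.48), and MYLK, myosin light chain kinase (1.00, SE 0.19), rose as well. The list of 33 SRF, YAP and contractile genes held 4 higher and 2 lower (18.2% called). The tropomyosin TPM1 differed by -0.73, but its 4 probes ranged from -0.73 to 0.33.

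BMP signalling genes were higher in 6 of 19 measured genes and lower in 1 (36.8% called, against 26.0% of all genes), with a median of 0.36. Within the 4 slides the median ran from -0.23 to 0.56. The lower count was 3 without siHic5_2 replicate 1 or siNS replicate 3 and 2 without siHic5_2 replicate 2 or siNS replicate 2. BMP2, a bone-inducing ligand, read 8.46, 8.04, 8.63 and 8.55 against 6.67, 6.45, 6.59 and 6.85 and rose 3.44-fold (1.78, SE 0.22, limma adjusted p = 9.11e-08). ID3, an inhibitor of bHLH factors and a direct BMP target, read 11.99, 11.43, 12.29 and 12.83 against 10.14, 10.37, 10.47 and 11.07 (1.62, SE 0.37, limma adjusted p = 0.000899). The transcription factors MSX2 and HEY1 rose by 1.35 and 1.38, and a second HEY1 probe differed by 0.21. None of these 4 genes had overlapping groups. Of 12 osteoblast genes, 4 were higher and 2 lower (50% called), with 1 lower without siHic5_2 replicate 4 or siNS replicate 4. CDH11, the osteoblast cadherin, rose by 0.97 (SE 0.21), and TNFRSF11B, osteoprotegerin, by 1.23, a call that ended without siHic5_2 replicate 4 (0.90) or siNS replicate 2. RUNX2, the master factor of bone formation, differed by -0.69, and PHEX, near background in both groups, by -0.78.

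Stress and inflammatory lists held strong single genes. The rise of HMOX1 was not shared by most antioxidant targets of NRF2, of which 5 of 25 were called higher and 0 lower (20% called, median -0.04). GCLM, a subunit of the glutathione synthesis enzyme, rose by 0.90 (probes 0.59 and 0.90). The thioredoxin gene TXN (0.45) lost its call without siHic5_2 replicate 1 or siNS replicate 1 or 2 (range 0.38 to 0.60), and the transporter ABCC3 (0.65) without any 1 of 6 arrays (siHic5_2 replicates 1, 2 and 3, siNS replicates 2, 3 and 4; range 0.53 to 0.79). Without siHic5_2 replicate 1 the list held 2 higher and 2 lower, and without siNS replicate 1, 2 or 4 it held 3 higher. Of 32 genes of the ATF4 and unfolded protein responses 8 were higher and 2 lower (31.2% called, median 0.34), with 1 lower without siHic5_2 replicate 1 or 4 or siNS replicate 1 or 3. Among those higher was CEBPG, a bZIP partner of ATF4 (0.94, SE 0.15). PSAT1, of serine synthesis, rose by 1.03, a call that ended without siHic5_2 replicate 1, 2 or 3 or siNS replicate 1 or 4 (range 0.81 to 1.22). Of 25 heat shock chaperones 2 were higher and 2 lower (16% called). The higher count was 1 without siHic5_2 replicate 3 or siNS replicate 4, and the lower count was 1 without siHic5_2 replicate 1 or 4 or siNS replicate 2 or 3. HSP90AB1, the constitutive HSP90 that holds the receptor ready for ligand, read 11.90, 12.48, 12.30 and 11.86 against 13.20, 13.43, 13.48 and 13.50. Its groups were 2.41-fold apart without overlap (-1.27, SE 0.17, limma adjusted p = 2.37e-07). BAG3, a co-chaperone, rose by 0.73 (SE 0.12).

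Of 26 inflammatory and NF-kB genes 6 were higher and 1 lower (26.9% called, against 26.0% of all genes, median 0.33), and 24 differences were above 0. Within the 4 slides the median of this list ran from -0.15 to 0.81. The lower count was 0 without siHic5_2 replicate 1, 2 or 3 or siNS replicate 1 or 4. TRAF1, a signalling adaptor of TNF receptors, read 8.15, 7.76, 8.33 and 9.31 against 6.76, 5.48, 6.60 and 6.19 (2.13, SE 0.28, limma adjusted p = 3.2e-07), and IRAK2, a kinase of Toll-like receptor signalling, read 7.69, 7.73, 8.44 and 9.21 against 5.91 to 6.75 (1.89, SE 0.28, limma adjusted p = 2.35e-06). The groups of both genes were apart, with siHic5_2 replicate 4 the highest. Of 24 AP-1 and immediate-early genes 8 were higher and 2 lower (41.7% called, against 26.0% of all genes), but 4 were higher without siHic5_2 replicate 4 or without siNS replicate 2. The lower count was 1 without siHic5_2 replicate 4 or siNS replicate 1 or 3. NR4A2, an orphan nuclear receptor, rose by 1.65 (SE 0.30). The phosphatase DUSP5 (1.19) and the AP-1 subunit FOSL1 (1.00) lost their calls without those same arrays, with lowest values of 0.96 and 0.76. Of 34 interferon-response genes 6 were higher and 2 lower (23.5% called), with 1 lower without any 1 of 6 arrays (siHic5_2 replicates 2, 3 and 4, siNS replicates 2, 3 and 4). TRIM22, an antiviral ubiquitin ligase, rose by 1.59 (SE 0.26) and TAP1, the peptide transporter of antigen presentation, by 1.13 (SE 0.17), while OASL fell at least 1.3-fold. IFIT1 differed by -0.97 with overlapping groups, and its call ended without any 1 of 6 arrays (siHic5_2 replicates 2, 3 and 4, siNS replicates 2, 3 and 4; range -1.20 to -0.69).

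A few mitochondrial genes moved far in lists whose share of called genes was near or under that of all genes. OPA1, the GTPase that fuses inner membranes, read 6.28, 6.68, 5.90 and 5.67 against 8.23, 8.20, 8.20 and 8.44 and fell 4.38-fold (-2.13, SE 0.19, limma adjusted p = 2.79e-11). COX7A2, a subunit of cytochrome c oxidase, read 11.96, 12.20, 12.29 and 11.99 against 13.48, 13.36, 13.50 and 13.60 (-1.38, SE 0.11, limma adjusted p = 1.63e-12), and COX6A1 of the same complex differed by -0.82 (SE 0.12). CPT2, which imports fatty acids for oxidation, read 6.68 to 7.15 against 8.42 to 8.92 (-1.74, SE 0.16, limma adjusted p = 2.06e-10). All groups of these genes were apart. Over 52 respiratory chain genes 3 were higher and 5 lower (15.4% called, median 0.03), with 3 lower without siNS replicate 4. The higher count was 1 without siHic5_2 replicate 1 or 3 or siNS replicate 3. With only the 8 arrays in the fit 0 were higher and 2 lower. NDUFA2 (-0.40) and NDUFB5 (0.38), both of complex I, moved in opposite directions. PPARGC1A, the coactivator that drives mitochondrial biogenesis, was above background on all siHic5_2 arrays and on 0 siNS arrays, at least 2.27-fold higher. The mitochondrial DNA helicase TWNK differed by -0.80 (SE 0.16) and the import subunit TIMM17A by -0.67, a call that ended without siHic5_2 replicate 4 (-0.55). Of 34 genes of mitochondrial dynamics and import 3 were higher and 7 lower (29.4% called), with 4 lower without siHic5_2 replicate 4.

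Of 36 genes of fatty acids and lipid droplets 7 were higher and 4 lower (30.6% called), with 4 higher without siNS replicate 2. ABHD5, the activator of droplet lipolysis, rose by 1.02 (SE 0.21) and LPIN2, a phosphatidate phosphatase, by 0.67 (probes 0.49 and 0.67). ACSL4, which activates arachidonate, differed by -0.71, with a second probe at 0.01. Of 21 sterol synthesis genes 4 were higher and 1 lower (23.8% called), and 2 were higher without siHic5_2 replicate 1, 3 or 4 or siNS replicate 1 or 3. The lower count was 0 without siHic5_2 replicate 2 and 2 without siHic5_2 replicate 4. SC5D, a late enzyme of the pathway, rose by 1.28 (SE 0.29) and INSIG2, which holds back SREBP, by 0.85 (SE 0.15). CYP51A1 (1.03) overlapped between groups and lost its call without any 1 of 5 arrays (siHic5_2 replicates 1, 3 and 4, siNS replicates 1 and 3; range 0.76 to 1.42), and MSMO1 (-1.01) without siHic5_2 replicate 2 (-0.82), with probes from -1.63 to -0.09. Of 35 genes of hypoxia and glycolysis 8 were higher and 1 lower (25.7% called), with 0 lower without siHic5_2 replicate 4 and 2 lower without siNS replicate 4. ALDOC, an aldolase, read 10.90, 10.51, 10.99 and 10.88 against 8.87, 8.88, 9.66 and 9.33 (1.64, SE 0.20, limma adjusted p = 8.66e-08). The vasodilator peptide gene ADM rose by 0.92, the oxygen sensor EGLN1 by 0.77 and ERO1A, of disulfide formation, by 0.72. These 3 genes had groups that did not overlap.

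Of 18 clock genes 4 were higher and 4 lower (44.4% called, against 26.0% of all genes). The repressor CRY2 rose by 0.80 (SE 0.18) and the activator NPAS2 at least 1.42-fold, while NR1D2 (REV-ERB beta) differed by -1.03 with overlapping groups, a call that ended without siHic5_2 replicate 4 or siNS replicate 2 (lowest size -0.78). Of 36 nuclear receptors and coregulators 3 were higher and 5 lower (22.2% called), with 3 lower without siHic5_2 replicate 4 or siNS replicate 2. NR3C2, the mineralocorticoid receptor, read 7.89, 7.68, 7.96 and 7.12 against 8.22 to 8.88 (-0.89, SE 0.19, limma adjusted p = 0.000375). In the Wnt pathway 8 of 30 genes were higher and 5 lower (43.3% called, against 26.0% of all genes), with 3 lower without siHic5_2 replicate 4 or siNS replicate 1. FZD3, a receptor, read 6.21 to 6.56 against 7.32 to 8.05 (-1.29, SE 0.16, limma adjusted p = 1.32e-07). SFRP1, a secreted inhibitor of Wnt ligands, rose by 1.12 (SE 0.15), the ligand WNT10A by 1.13 (SE 0.28) and NKD1, a feedback inhibitor, by 1.09 (SE 0.25).

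Among 20 histone genes 3 were higher and 6 lower (45% called, against 26.0% of all genes), with 1 higher without siHic5_2 replicate 1 or siNS replicate 2. H4C3 (-1.72) and H2AX (-1.03), which marks DNA breaks when phosphorylated, were lower and H2BC21 (1.51) was higher. H2BC5 (0.93, probes 0.41 and 0.93) lost its call without siHic5_2 replicate 1 or siNS replicate 2 (lowest 0.72). Histone genes are near-identical, so probes may share signal. Of 30 CDK inhibitors, cyclins and regulators 3 were higher and 6 lower (30% called), with 2 lower without siHic5_2 replicate 1 or 4 and 3 lower without siNS replicate 2 or 3. CDKN2D (p19) differed by -0.72, a call that ended without any 1 of 6 arrays (all siHic5_2 replicates, siNS replicates 2 and 3; range -0.80 to -0.64). Of 47 small GTPase and actin regulators 8 were higher and 5 lower (27.7% called), with 1 to 3 lower without any 1 of 6 arrays (all but siHic5_2 replicate 2 and siNS replicate 2). RHOB, a stress-responsive GTPase, rose by 1.17 (SE 0.29) and PHACTR3, which binds actin and phosphatase 1, by 2.21 (probes 1.38 and 2.21). RHOJ was above background on 2 siHic5_2 and 0 siNS arrays, and its call (0.75) ended without any 1 of 5 arrays (siHic5_2 replicates 1 and 4, siNS replicates 1, 2 and 3; range 0.51 to 0.88).

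Ribosomal proteins had the lowest share of called genes among the 41 lists. Of 32 measured, 1 was higher (RPS23, 0.55) and 1 lower (RPL5, -0.44), or 6.25% called, with a median of 0.01. The higher count was 2 without siHic5_2 replicate 3 or siNS replicate 2. The RPL5 call ended without siHic5_2 replicate 4 or siNS replicate 2 (lowest size -0.35). Of 14 reference genes 2 were higher and 1 lower (21.4% called). HPRT1 rose by 0.48 with overlapping groups, a call that ended without siHic5_2 replicate 1 or siNS replicate 1, 2 or 4 (range 0.41 to 0.63).

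**Figure D3:**
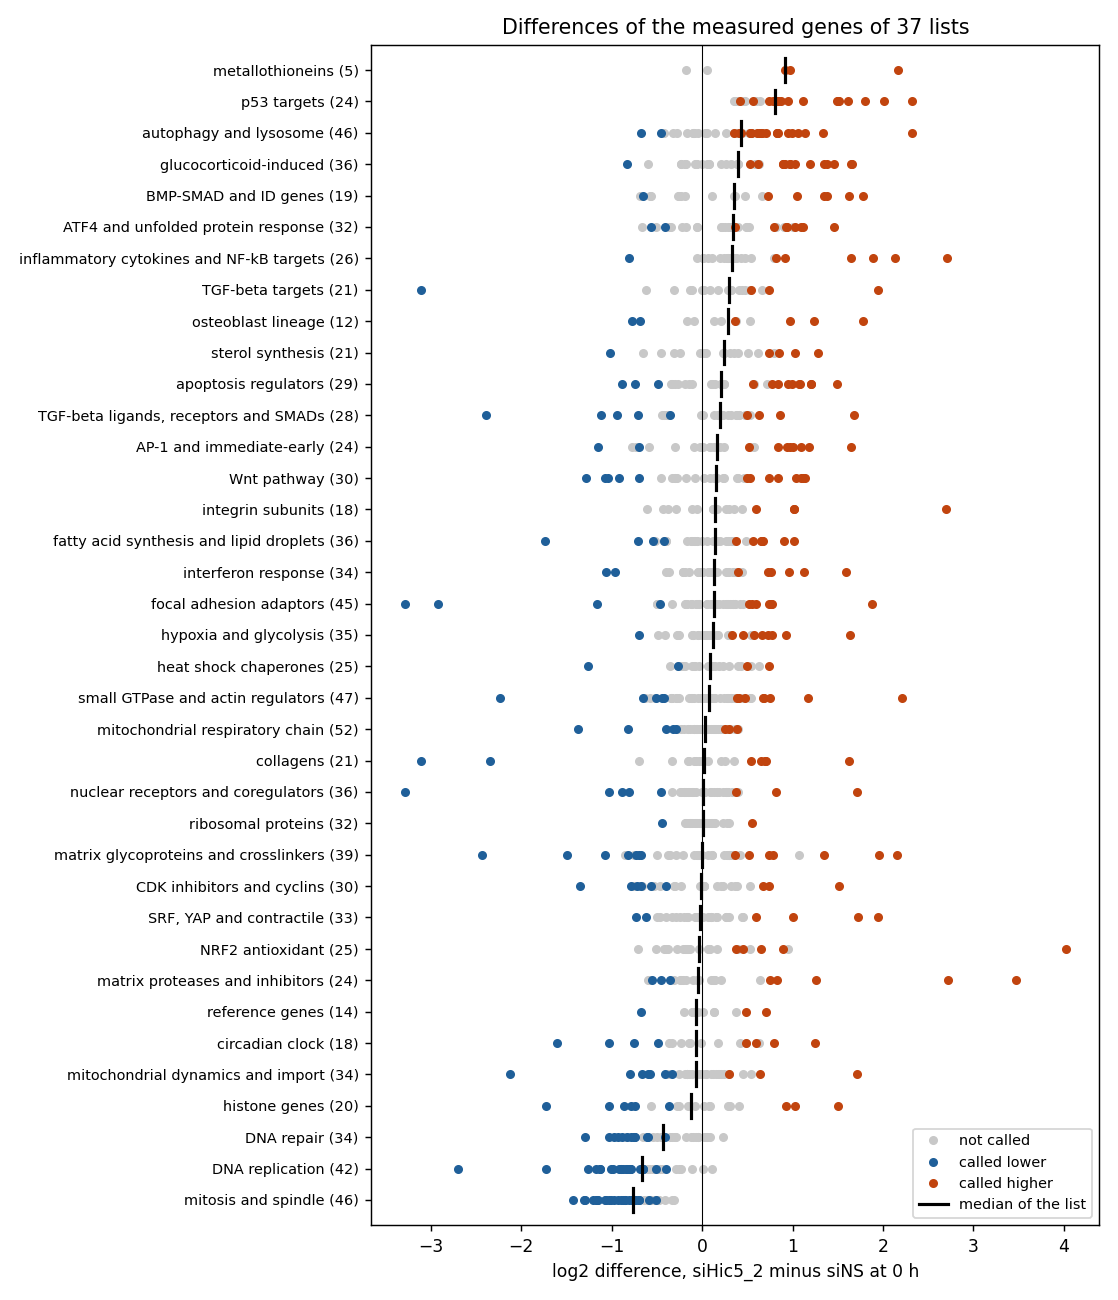
Each row is 1 of 37 gene lists with the number of measured genes in brackets, ordered by its median. Points are genes at their log2 difference (x axis), coloured where called, and the black bar is the median. The p53 list (median 0.81) and the mitotic list (median -0.76) lie at opposite sides, and the ribosomal list has a median of 0.01.

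The mesenchymal markers of an osteosarcoma line were present. Of 11 mesenchymal and osteosarcoma markers measured, 10 were above background on all 8 arrays, and their mean log2 level was 10.37 to 10.51 on siNS arrays and 10.55 to 10.85 on siHic5_2 arrays. Of these 11 markers 4 were called higher and 1 lower (45.5% called, against 26.0% of all genes), and 6 were not called. The lower count was 0 without siHic5_2 replicate 4 or siNS replicate 4. SPARC, a matrix protein of bone, rose by 0.78 with overlapping groups. Of 13 listed epithelial markers 6 were measured, with mean levels of 8.19 to 8.44 on siNS and 7.76 to 7.88 on siHic5_2 arrays. The epithelial transcription factor ELF3 (-1.40) and the mucin MUC1 (-1.02, probes -1.02 and -0.94) fell. Of 12 blood markers 5 were measured, with means of 6.42 to 6.78 and 6.82 to 7.30. LCP1, the actin bundler plastin-2, read 9.43, 9.07, 8.66 and 8.92 against 7.0 to 7.89 and was the only blood marker called (1.61, SE 0.28, limma adjusted p = 3.91e-05). Of 9 endothelial markers 3 were measured, with means of 5.42 to 6.02 and 5.20 to 5.61, and VWF, not above background with siHic5_2, fell at least 1.28-fold, a call that ended without siNS replicate 1 or 4. The part of other cells in the results was not tested.

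The differences at 0 h were set beside those of siHic5_2 and siNS cells after 2, 4 and 24 h of dexamethasone, which are other arrays. Of the 3088 genes called at 0 h, 97.5%, 96.7% and 91.0% had the same sign at 2, 4 and 24 h, against 73.5%, 70.1% and 66.4% of genes not called at 0 h. Called in the same direction were 69.6%, 68.2% and 56.5%, where 26.0%, 30.6% and 29.7% of all genes were called at those times. FERMT2 differed by -2.65, -2.85 and -2.76 at 2, 4 and 24 h, COX7A2 by -1.40, -1.38 and -1.41, and FKBP3 by -2.59, -2.41 and -2.61. The p53 median was 0.81, 0.74 and 0.60, and the mitotic median was -0.82, -0.74 and -0.99.

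In a test of the change itself, the 0 h difference minus the mean of the 3 hormone times was called for 86 genes (0.724% of those tested), 58 higher (0.488%) and 28 lower (0.236%). The count of such genes was 47 to 80 without any 1 of the 8 arrays, lowest without siNS replicate 1, and 57 without siHic5_2 replicate 4 or siNS replicate 2. TSC22D3 rose in siNS cells from 7.66 at 0 h to 10.84 at 2 h, and siHic5_2 cells went from 9.32 to 10.66. Its knockdown difference of 1.66 at 0 h became -0.18, -0.24 and 0.00 with hormone, a change of 1.80 (limma adjusted p = 3.61e-09). DUSP1 differed by 0.97 at 0 h and by -0.95, -0.80 and -0.13 afterwards, a change of 1.60 (limma adjusted p = 6.4e-05). Both genes thus stood above control before hormone and not with it.

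By the same test, the signed difference of further genes was higher at 0 h than its mean with hormone. For PHACTR3 and EDN1 it turned from positive to negative. SESN1 differed by 2.01 at 0 h and by 1.24, 0.92 and -0.38 with hormone, a change of 1.41 (limma adjusted p = 0.00121), while siNS cells rose from 6.82 to 10.91 at 24 h. PHACTR3 differed by 2.21 and then by -0.64, -1.19 and -1.10, a change of 3.19 (limma adjusted p = 3.21e-05). EDN1, the vasoconstrictor endothelin-1, read 9.54, 9.57, 9.62 and 9.43 at 0 h against 8.83, 7.64, 8.73 and 8.21, a difference of 1.19, and differed by -0.90, -0.82 and -1.52 with hormone, a change of 2.27 (limma adjusted p = 3.07e-05). TCIM, above background on all siHic5_2 arrays at 0 h, had siHic5_2 means of 4.92, 4.81 and 4.72 at 2, 4 and 24 h, where 0 arrays were above background. MT1G stayed higher with hormone (1.02, 1.10 and 1.26) but by less than its 2.17 at 0 h (change 1.05, limma adjusted p = 0.0376).

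**Figure D4:**
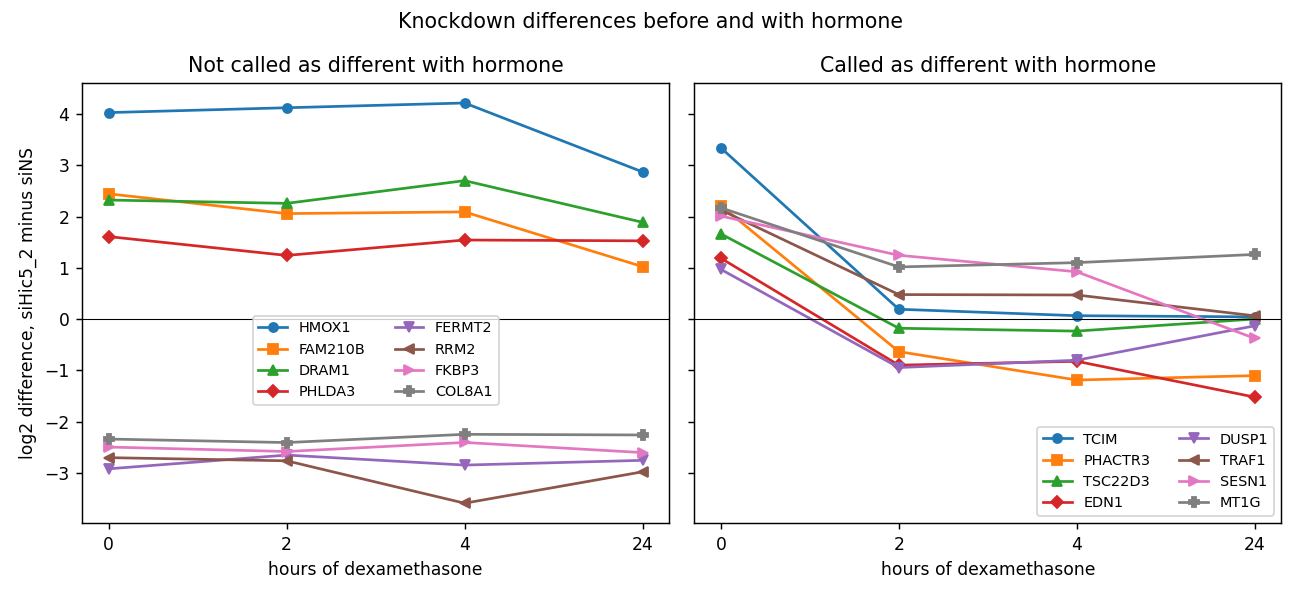
Lines give the log2 difference siHic5_2 minus siNS (y axis) at 0, 2, 4 and 24 h of dexamethasone (x axis, not to scale) for 8 genes not called (left) and 8 genes called (right) as different between 0 h and the hormone times. FERMT2 stays between -2.92 and -2.65, while TSC22D3 goes from 1.66 at 0 h to -0.18 at 2 h.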

How the data were processed

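Expression was measured in 48 array samples of 12 groups of 4, of which 8 are compared here. The deposited raw table holds bead intensity and a detection p-value per probe, per the file headers. The authors' processed values, on a log2 scale and deposited beside it, are used here. The submitters' processing notes name limma 3.14.4 and R 2.15.3. The authors' normalization is not stated there or in the labels. The processed values lay within 0.262 of neqc values computed here, with array medians of 5.42. The scale was read from this match, and genes were not centred.

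Of the 48 deposited intensity columns, 0 matched the detection p-values of their own name, 32 matched those named for another array and 16 matched none, so detection was recomputed as the share of 770 negative controls at or above a probe. Of 47323 probes, 20912 had p under 0.01 on at least 4 of the 48 arrays. GEO's platform annotation named 30113 probes with 1 symbol, 8 with several and 17202 with none. Of the kept probes 15904 had 1 symbol, and the brightest per gene gave 11886 genes. Columns of no sample numbered 0.

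A limma 3.58.1 (R 4.3.3) model of 12 group means with 36 residual degrees of freedom was fitted to all arrays, with Benjamini-Hochberg adjustment over all genes. The median SE of a difference was 0.194, and 4 arrays per group limit the precision. The model was tested on simulated data. Where no array of a group reached p under 0.01, the gene has only a bound: the bright group's mean against, per array, the higher of the gene's value and the lowest signal above background.

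Members, 41 gene lists and tests were chosen with earlier results of these data known. Named genes are, among calls with 1 sign on all 4 slides, the 15 highest and 15 lowest measured in both groups, the 5 largest bounds each way, the 4 largest calls of each list, TGFB1I1, PXN, LPXN, NR3C1 and the 5 largest changes with hormone each way. Promoter examples, MT1E, MT2A, RUNX2 and further apoptosis genes stand beside these. Replicate numbers did not pair siHic5_2 with siNS samples: correlations of same-numbered deviations were -0.076 to 0.066. Alternatives were other normalizations, blocks, filters, probe summaries and controls, and leaving out each array.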

Additional observations from a re-analysis of the deposited data

Results flagged for a closer look

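In a group of 4 arrays, 1 array lay far from the other 3 for 20 of 334 gene and group combinations, and chance gives about 1 in 20. With siHic5_2, replicate 4 was apart for DRAM1 (10.4 against 9.85 to 9.91), TGFB2 (5.72 against 7.40 to 7.67), ACSL4 (8.54 against 8.28 to 8.32) and EGLN1 (8.06 against 7.86 to 7.88). Replicate 2 was apart for RENBP (7.93 against 9.08 to 9.26) and replicate 1 for NDUFA2 (11.23 against 11.35 to 11.37). Among siNS arrays, replicate 3 was apart for LY96 (8.67 against 6.52 to 6.65), ABHD3 (7.52 against 6.99 to 7.02), TAP1 (10.03 against 9.29 to 9.41), HPRT1 (11.49 against 10.87 to 10.95) and CIDEC (4.93 against 4.69 to 4.72). Replicate 2 was apart for ENG (6.28 against 6.95 to 7.05), TRIM22 (7.14 against 7.56 to 7.59), H2BC5 (8.59 against 9.37 to 9.46) and ARC (7.31 against 8.22 to 8.40). Replicate 1 was apart for MT1G (9.35 against 9.56 to 9.58), MMP10 (6.13 against 5.71 to 5.75) and FAM90A1 (5.14 against 4.79 to 4.84), and replicate 4 for OPA1 (8.44 against 8.20 to 8.23) and PPARGC1A (5.92 against 5.29 to 5.36).

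The knockdown difference at 0 h minus its mean at 2, 4 and 24 h was called by limma for 19 named genes. It was above 0 for PHACTR3 (3.19), EDN1 (2.27), TSC22D3 (1.80), TRAF1 (1.79), DUSP1 (1.60), SESN1 (1.41), IRAK2 (1.28), MSX2 (1.13), MT1G (1.05) and BIRC2 (0.69). The fitted values of TCIM (3.24), KRTAP13-2 (2.30), GDF15 (1.18) and CIDEC (2.27) include groups not above background and are no sizes of change. Below 0 were ARC (-2.04) and, again with groups not above background, RP1L1 (-2.87), FAM90A1 (-2.0), HTRA4 (-1.99) and CD93 (-1.70). CIDEC, RP1L1, FAM90A1 and CD93 were below background in both groups at 0 h and differed only with hormone.

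Probes without a gene name here entered no comparison of genes and were tested only where every probe was. Of 5008 of them above the filter, 661 (13.2%) were called by limma for siHic5_2 against siNS at 0 h, and 0 for siNS against NI.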

How the results depend on the processing

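The 0 h count of 3088 genes was 2345 (only the 8 arrays) to 3607 (replicate block) over the alternatives that tested genes, 3076 with neqc, 3222 with the slide as a block, 2849 without a filter and 3256 with NI as control. A test of every probe called 4372 of 20912 probes, unnamed ones included. TGFB1I1 was lower in all, at -2.30 without background correction and -3.41 with neqc. The change between 0 h and hormone times gave 47 to 80 genes without 1 array (31 to 55 higher, 15 to 26 lower) and 15 lower with a filter on the 8 arrays. The replicate block, whose numbers did not pair siHic5_2 with siNS samples at 0 h, called 3607 genes at 0 h. For the change with hormone it called 147 genes (94 higher, 53 lower). Genes not called at 0 h changed sign: CIDEC without siNS replicate 3 (0.0038, with -0.0975 the lowest without 1 array), RP1L1 with NI as control (-0.0769), and HTRA4 with NI as control (0.397) or without siHic5_2 replicate 1 or 2 or siNS replicate 1 or 2 (0.0211, 0.0839, 0.0381 and 0.0300, with -0.122 the lowest without 1 array). Of 166 named genes, 165 kept direction and call with neqc and 152 with only the 8 arrays. Of list counts of 4 or more, fitting only the 8 arrays gave higher counts of 5 (Wnt, from 8), 4 (matrix glycoproteins and lipids, from 7; small GTPases, from 8), 3 (NRF2, from 5) and 2 (sterols and mesenchymal markers, from 4), and lower counts of 3 (TGF-beta pathway, from 5), 2 (respiratory chain, from 5) and 1 (small GTPases, from 5). The 12 arrays at 0 h alone gave 2 NRF2 and 2 sterol genes and 5 small GTPases higher, and 3 TGF-beta genes and 1 small GTPase lower. Testing without a filter or by every probe gave 3 NRF2 and 2 sterol genes higher, no filter or no background correction 3 small GTPases lower, and NI as control 3 respiratory genes lower. The replicate block called 15 ATF4 genes higher (from 8), and the mean over probes 7 adhesion adaptors lower (from 4). The causes were not tested. Signal near background limits genes such as MT1H, PHEX and RHOJ.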
